A study of Mus musculus with 3 samples.

Results

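The collagen genes were taken as every symbol of the gene table of the form Col, a number, a, a number, which gave 44 genes of 51912. Their unique molecular identifier (UMI) counts were compared between barcodes with Cr2, the complement receptor gene that marks follicular dendritic cells (FDCs), and stroma gated on Madcam1, Tnfsf11, Fmod or Inmt, in each of 3 libraries. Of the 44 genes, 8 had no UMI in the 5 gates and 17 passed the filter on low counts and entered the test, all of which are described below with their values.

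The libraries came from lymph nodes of C57BL/6 mice with the genotype CXCL13-TdTomato+. The study lists this strain as a Cxcl13-Cre/tdTomato transgene, named after the follicular chemokine Cxcl13. There the red protein TdTomato serves to mark reticular cells of B cell follicles. Live Podoplanin+ CD31- CD45- TdTomato+ cells were sorted after digestion with collagenase and sequenced from the 3' end of the RNA with the 10x Genomics kit. By their shared title, mice of the 2-IC libraries (replicates 1 and 2) had received 2 injections of antigen-immunocomplex (antigen-IC), 7 days and 24 h before. The short descriptions of these libraries name 24 h for replicate 1 and 7 days for replicate 2, so that the replicates may differ. Mice of the 1-IC library had received 1 injection 24 h before. Nodes of several mice were pooled and no library was made without antigen-IC, so that a library is 1 sample. The p-values below set differences between gates against a spread over all gates of these 3 libraries, once the level of each library was fitted. The spread of each gene was drawn towards that of other genes. A p-value thus does not measure the variation of its own gene over 3 libraries alone. Variation between libraries may be technical.

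Collagens are triple helices of 3 chains, and the chains a cell makes decide which matrix it can build. The fibrillar chains of collagens I, III and V form the load-bearing fibres, collagen IV forms the sheets of basement membranes, collagen VI forms beaded microfilaments around cells, and fibril-associated collagens such as XII and XIV decorate fibre surfaces. In lymph nodes, reticular cells wrap collagen-rich fibres that serve as scaffold and conduits, whereas the FDC network in the centre of B cell follicles is known to hold few such fibres.

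The libraries held 3790, 1029 and 667 barcodes with 20607903, 12788101 and 3766526 UMIs in 2-IC replicates 1 and 2 and in the 1-IC library, of which 1526, 391 and 326 barcodes were retained. Barcodes with at least 1 UMI of Cr2 formed the Cr2 gate (145, 35 and 50 in the same order). Barcodes without Cr2 and with exactly 1 of the other 4 genes formed the Madcam1 gate (17, 4 and 6), the Tnfsf11 gate (110, 20 and 32), the Fmod gate (69, 21 and 10) and the Inmt gate (461, 91 and 81). In the study Madcam1 with Tnfsf11 marks marginal reticular cells and Tnfsf11 with Ch25h interfollicular reticular cells, while Fmod and Inmt were used here for stroma of the T-B border and the medulla. The Cr2 gate carried other FDC genes, with Fcer2a at 182 to 227 and Coch at 162 to 263 CPM (UMIs per 1000000 UMIs of the gate and library), against at most 4.48 and 31.4 CPM in the Tnfsf11, Fmod and Inmt gates. In 2-IC replicate 1 the Madcam1 gate also held 5 UMIs of Fcer2a and 20 UMIs of Coch (62.8 and 251 CPM), and 0 of either in the other libraries. The Inmt gate carried Cyp2f2 (126 to 259 CPM) and the Fmod gate Ccl21a (9431 to 17849 CPM). The small Madcam1 gate carried Ccl21a at 7295 to 19778 CPM and, by its rule, no Tnfsf11, which goes against a label of marginal reticular cells, so the gates are called by their genes. Of endothelial and T cell genes that the filter on contaminating cells did not use, Cdh5 and Pecam1 reached at most 12.6 and 8.30 CPM and Cd3e and Trbc2 at most 2.37 and 11.8 CPM in any of the 15 sums of gate and library. Barcodes with UMIs of the B cell genes Cd79a and Cd79b and of Ptprc and none of Pdpn (527, 112 and 126) served as a reference for free RNA, since B cells are not known to make fibrillar collagen. The 2-IC libraries shared 76 barcode sequences, and 13 shared barcodes fell in the gates.

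Fewer collagen UMIs can mean fewer cells with collagen RNA or less RNA in each, which a sum of barcodes does not tell apart. The promoters of 3 of the chains lower in the Cr2 gate than in the Tnfsf11, Fmod and Inmt gates are given here to show which short motifs stand before genes that moved together. Each is the 120 bases before a RefSeq transcript start on build GRCm38.p6, read 5′ to 3′ on the strand of the gene, and capitals mark the TATA box letters TATAAA, the CAAT box letters CCAAT or the GC box letters GGGCGG, searched on both strands.
Col3a1 (ENSMUSG00000026043), collagen III, chr1:45311418-45311537, plus strand: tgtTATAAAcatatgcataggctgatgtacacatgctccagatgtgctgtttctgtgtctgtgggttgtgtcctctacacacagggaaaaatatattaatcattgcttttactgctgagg
Col5a1 (ENSMUSG00000026837), collagen V, chr2:27886305-27886424, plus strand: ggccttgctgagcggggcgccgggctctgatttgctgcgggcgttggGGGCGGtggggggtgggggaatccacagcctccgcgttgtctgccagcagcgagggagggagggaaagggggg
Col6a3 (ENSMUSG00000048126), collagen VI, chr1:90843972-90844091, minus strand: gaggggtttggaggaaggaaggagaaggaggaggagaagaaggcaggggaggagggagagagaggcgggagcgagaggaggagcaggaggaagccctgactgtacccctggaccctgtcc
No exon of the annotation lay over these windows. Of the 17 chains, 14 had a promoter in the table, and in the 250 bases before the start TATAAA was found in 1 of the 14, CCAAT in 6 and GGGCGG in 10, against 12.4%, 33.8% and 32.7% of 32851 promoter windows of the same length. Col4a1 and Col4a2 start 21 bases apart on opposite strands of chromosome 8. These matches describe letters and not sites in use.

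Collagen UMIs made up a smaller share of the RNA in the Cr2 gate than in the Tnfsf11, Fmod and Inmt gates, in every library. The 44 genes took 0.358%, 0.421% and 0.105% of all UMIs of the Cr2 gate, in the library order given above that is kept throughout (0.295% ± 0.167, SD, n = 3, and a mean of 0.390% without the 1-IC library). The Fmod gate had 0.839%, 1.17% and 0.640% (0.883% ± 0.268) and the Inmt gate 0.806%, 0.990% and 0.625% (0.807% ± 0.183). The lowest library of either lay above the highest of the Cr2 gate. The Tnfsf11 gate, at 0.651%, 1.07% and 0.492% (0.738% ± 0.299), did not overlap with the Cr2 gate either. Within a library, the share was 1.82, 2.54 and 4.68 times that of the Cr2 gate in the Tnfsf11 gate, 2.34, 2.78 and 6.08 times in the Fmod gate, and 2.25, 2.35 and 5.94 times in the Inmt gate. The Madcam1 gate had 0.675%, 0.287% and 0.344% (0.435% ± 0.209) and overlapped with the Cr2 gate, above it in 2 libraries and below it in 2-IC replicate 2, where the gate held 4 barcodes. No test was run on this summed share. Counting error was small beside these differences, with exact 95% binomial intervals of 0.345% to 0.371% for the Cr2 gate and 0.795% to 0.818% for the Inmt gate of 2-IC replicate 1.

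**Figure D1:**
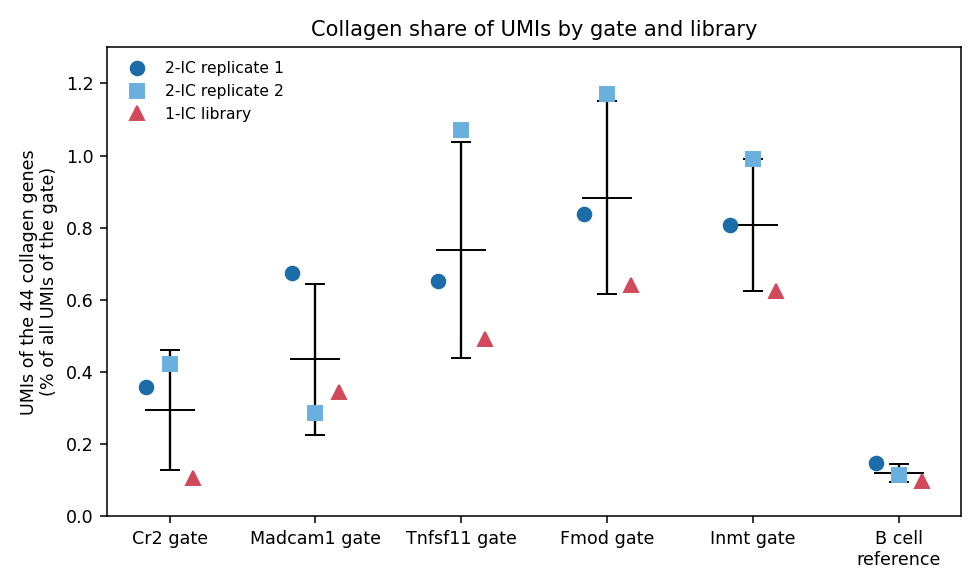
Share of UMIs from the 44 collagen genes (y axis, % of all UMIs) in each gate and in the B cell reference (x axis). Each symbol is 1 library, and the black lines give the mean and SD of the 3 libraries; the Cr2 gate lies between 0.105% and 0.421%, below every library of the Tnfsf11, Fmod and Inmt gates.

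The share depended on how much Cr2 a barcode held. In 2-IC replicate 1, the 62 Cr2 barcodes with exactly 1 UMI of Cr2 held 2090 of the 3024 collagen UMIs of the gate, at a share of 0.706%, which is above the 0.651% of the Tnfsf11 gate of that library. In 2-IC replicate 2 and the 1-IC library the barcodes with 1 UMI of Cr2 numbered 8 and 11, with 0.552% and 0.206%. Barcodes with at least 2 UMIs of Cr2 (83, 27 and 39) had 0.170%, 0.390% and 0.0790%. Barcodes with at least 2 UMIs of Cr2 thus lay below the Tnfsf11, Fmod and Inmt gates in each library. In 2-IC replicate 1 those with 1 UMI of Cr2 were not below the Tnfsf11 gate. They were still below the Fmod (0.839%) and Inmt (0.806%) gates of that library.

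The median barcode of the Cr2 gate had 0.211%, 0.216% and 0.0445% collagen UMIs, against 0.708%, 0.793% and 0.560% for the Inmt gate. At least 1 collagen UMI was found in 95.2%, 94.3% and 72% of Cr2 barcodes and in at least 99.6% of Inmt barcodes, at median depths of 5166, 10091 and 4836.5 UMIs per barcode for Cr2 and 4371, 12339 and 5710 for Inmt. The B cell reference had 0.147%, 0.115% and 0.0989% collagen UMIs (0.120% ± 0.0247), found in 85.2%, 76.8% and 19.8% of its barcodes at median depths of 5369, 6314 and 3578 UMIs. The median barcode of the reference had 0.0420%, 0.0198% and 0%, below that of the Cr2 gate in every library. Its upper quartile was 0.113%, 0.0438% and 0%, below its pooled share in every library. The pooled share of the reference was thus raised by a minority of its barcodes in all 3 libraries. Whether it gives the level of free RNA alone was not tested. In pooled share the Cr2 gate was 2.43 and 3.66 times this reference in the 2-IC libraries and 1.06 times in the 1-IC library. With at least 2 UMIs of Cr2 these ratios were 1.15, 3.39 and 0.798, and in Cr2 barcodes without UMIs of the other 4 gate genes 2.31, 1.08 and 1.10. In the 1-IC library 11 of the 17 chains tested were at or below the reference in CPM, whereas no chain in 2-IC replicate 1 and 1 (Col6a6) in 2-IC replicate 2 fell to the reference. The share of all genes at or below the reference was not counted, so these numbers are not read as particular to collagen.

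**Figure D2:**
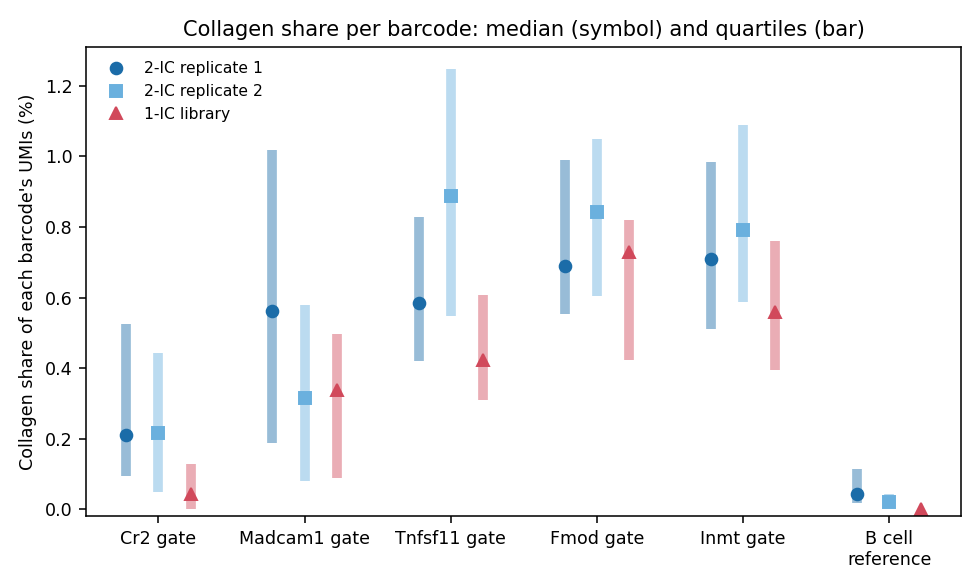
Collagen share of the UMIs of single barcodes (y axis, %) by gate and library (x axis), with the median as a symbol and the lower to upper quartile as a bar. Medians of the Cr2 gate lie between 0.0445% and 0.216% and those of the Inmt gate between 0.560% and 0.793%.

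A part of the Cr2 barcodes had little of the nuclear RNA Malat1. In the 35, 10 and 18 Cr2 barcodes with under 1% of UMIs from Malat1 the collagen share was 0.271%, 0.0508% and 0.0218%, and in the remaining Cr2 barcodes 0.375%, 0.485% and 0.122%. The latter still lay below the Tnfsf11, Fmod and Inmt gates of the same library.

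Fibrillar chains were the largest class of collagen RNA in every gate and library. They held 74.1%, 73.3% and 69.8% of collagen UMIs in the Cr2 gate and 72.9%, 66.3% and 70.8% in the Inmt gate. Collagen VI chains held 13.0%, 10.4% and 10.9% in the Cr2 gate, below 16.1%, 15.2% and 14.6% in the Inmt gate and 19.2%, 15.2% and 20.4% in the Fmod gate, and every library of the Tnfsf11 gate also lay above them. Fibril-associated chains held 2.68%, 2.05% and 10.7% in the Cr2 gate and between 0.551% and 1.41% in those 3 gates, again without overlap and in the opposite direction. These shares add to 100% within a gate and were not tested.

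Single chains were tested on counts summed per gate and library, with all genes in 1 edgeR fit (gate and library as terms, Benjamini-Hochberg adjusted p under 0.05 as a call). Against the Inmt gate 14 of the 17 chains were lower in the Cr2 gate and 0 higher, where 12.7% of all 6882 genes tested were called lower, 10.3% higher and 23.0% in either direction. Against the Fmod gate 11 were lower and 0 higher, beside 6.63% of all genes lower, 7.32% higher and 13.9% in either direction. Against the Tnfsf11 gate 10 were lower and 1 higher, beside 4.48% of all genes lower, 6.63% higher and 11.1% in either direction. Against the Madcam1 gate 2 were lower and 0 higher, beside 0.552% of all genes lower, 1.03% higher and 1.58% in either direction. The median log2 fold change of the 17 chains was -1.61, -1.35, -1.06 and -0.51 against the Inmt, Fmod, Tnfsf11 and Madcam1 gates, and that of all genes -0.05, -0.02, -0.04 and 0.25. The 4 contrasts share the Cr2 sums. The 17 chains passed the filter through their level in these same sums, so that the counts do not stand for all 44 genes. Without the library as a term, the calls were 10, 7, 7 and 0 in the same order of gates, and leaving out single libraries left 12 to 14, 10, 9 to 10 and 1 to 2.

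**Figure D3:**
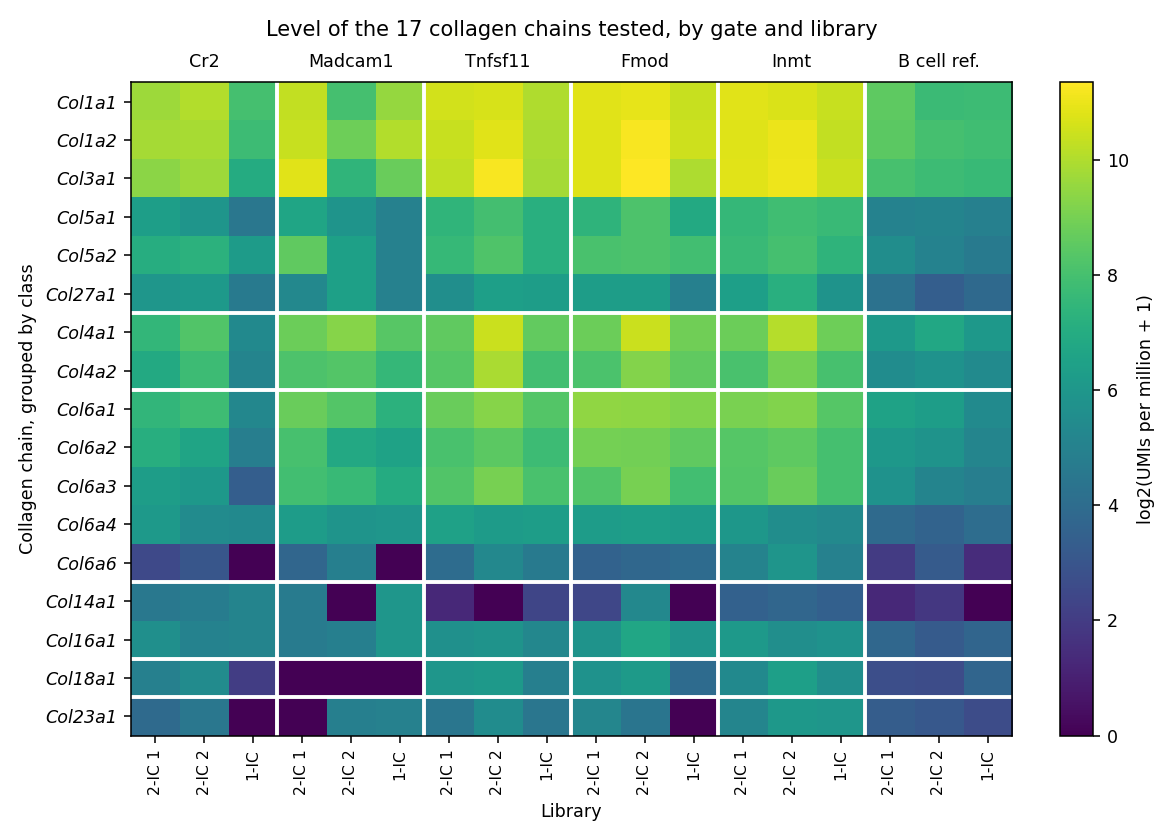
Level of the 17 chains tested as log2(CPM + 1) (colour) in each library of the 5 gates and the B cell reference (columns), with chains grouped by class (rows). Fibrillar chains fill the upper rows; in the Cr2 gate of the 1-IC library most rows are as dark as in the B cell reference, and Col18a1 is at 0 in the Madcam1 gate.

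Collagen I, the heterotrimer of Col1a1 and Col1a2 chains and the main collagen of fibres, was lower in the Cr2 gate than in the Tnfsf11, Fmod and Inmt gates. Each captured molecule of RNA gives 1 tag in 3' libraries, so that CPM of different chains need no correction for length. Whether different chains are captured alike was not tested, so that orders between chains describe UMIs alone. Col1a2 stood at 894, 933 and 218 CPM in the Cr2 gate against 1332, 1846 and 967 CPM in the Tnfsf11 gate, 1748, 2423 and 1425 CPM in the Fmod gate and 1758, 2096 and 1247 CPM in the Inmt gate, without overlap. Its log2 fold change was -1.06 ± 0.25 (SE), -1.54 ± 0.26 and -1.50 ± 0.25 (edgeR, adjusted p = 0.0041, 5.1e-05 and 2.7e-05). Col1a1 stood at 809, 1041 and 258 CPM in the Cr2 gate against 1533, 1606 and 1016 CPM in the Tnfsf11 gate, and these ranges overlapped. It was called against all 3 (log2 fold change -1.01 ± 0.26, -1.35 ± 0.26 and -1.37 ± 0.26; edgeR, adjusted p = 0.0077, 0.00034 and 0.00012), but the call against the Tnfsf11 gate was lost without 2-IC replicate 1 (adjusted p = 0.079) or without the 1-IC library (0.075), and by DESeq2 (0.075). Against the Madcam1 gate neither Col1a1 (-0.11 ± 0.30, adjusted p = 0.94) nor Col1a2 (-0.51 ± 0.29, adjusted p = 0.51; edgeR) was called. In 2-IC replicate 2 that gate lay below the Cr2 gate, at 258 and 460 CPM. The ratio of Col1a1 to Col1a2 UMIs lay between 0.905 and 1.19 in the Cr2 gate and between 0.795 and 1.15 in the Tnfsf11, Fmod and Inmt gates.

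Collagen III, a homotrimer of Col3a1 and the collagen of fine reticular fibres, was also lower in the Cr2 gate than in the Tnfsf11, Fmod and Inmt gates. Col3a1, whose promoter is printed above, had 664, 811 and 125 CPM in the Cr2 gate, 1223, 2390 and 900.3 CPM in the Tnfsf11 gate, 1776, 2600 and 980.0 CPM in the Fmod gate and 1824, 2141 and 1400 CPM in the Inmt gate. Every library of the latter 3 lay above every library of the Cr2 gate, with log2 fold changes of -1.58 ± 0.35, -1.86 ± 0.35 and -2.06 ± 0.35 (edgeR, adjusted p = 0.0017, 0.00023 and 2.7e-05). Col3a1 was not called against the Madcam1 gate (-0.75 ± 0.39; edgeR, adjusted p = 0.46), which had 1822, 172 and 433 CPM and overlapped. In the 1-IC library the Col3a1 level of the Cr2 gate was below the 198 CPM of the B cell reference. Fewer Col3a1 than Col1a1 UMIs were counted in every library of the Cr2 gate (ratio 0.820, 0.779 and 0.482), while the Inmt gate had 1.01, 1.29 and 1.05. The ratio was 0.797, 1.49 and 0.886 in the Tnfsf11 gate and 0.978, 1.34 and 0.725 in the Fmod gate. It was 1.45, 0.667 and 0.583 in the Madcam1 gate. These gates thus overlapped with the Cr2 gate.

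The chains of collagen V, which starts fibrils of collagen I and sets their width, did not move by the same amount. Col5a1 had 81.6, 60.0 and 21.8 CPM in the Cr2 gate against 172, 249.8 and 141 CPM in the Tnfsf11 gate, 167, 291 and 119 CPM in the Fmod gate and 187, 234 and 204 CPM in the Inmt gate. It was called lower against all 3 (log2 fold change -1.60 ± 0.27, -1.75 ± 0.28 and -1.90 ± 0.25; edgeR, adjusted p = 6.3e-05, 2.4e-05 and 6.4e-07). Col5a2 had 135, 156 and 74.7 CPM in the Cr2 gate and was called lower against the Fmod (-1.10 ± 0.27, adjusted p = 0.0037) and Inmt gates (-0.86 ± 0.25, adjusted p = 0.0096), calls lost without 2-IC replicate 1 (0.061) and without the 1-IC library (0.062), but not against the Tnfsf11 gate (-0.72 ± 0.26, adjusted p = 0.079; edgeR). The ratio of Col5a2 to Col5a1 UMIs was 1.65, 2.60 and 3.43 in the Cr2 gate against 1.12, 1.19 and 1.00 in the Tnfsf11 gate and 1.09, 1.09 and 0.808 in the Inmt gate, without overlap, while the Fmod gate (1.63, 0.991 and 2.00) overlapped. The ratio in the 1-IC library rests on 24 and 7 UMIs. Against the Madcam1 gate neither Col5a1 (-0.21 ± 0.54, adjusted p = 0.93) nor Col5a2 (-0.68 ± 0.38, adjusted p = 0.49; edgeR) was called. Col27a1, a fibrillar chain known from cartilage, had 61.5, 67.2 and 24.9 CPM in the Cr2 gate and was called against the Inmt gate only (-0.87 ± 0.25; edgeR, adjusted p = 0.0084), a call lost without 2-IC replicate 2 (adjusted p = 0.095) and by DESeq2 (0.076).

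Basement membrane collagen IV was lower in the Cr2 gate in all 4 comparisons for Col4a1. Col4a1 had 179.8, 302 and 40.5 CPM in the Cr2 gate, 439.7, 632 and 340.5 CPM in the Madcam1 gate, 378, 1395 and 394 CPM in the Tnfsf11 gate, 437, 1396 and 475 CPM in the Fmod gate and 439, 1069 and 456 CPM in the Inmt gate, with no overlap. Its log2 fold change was -1.43 ± 0.33, -1.88 ± 0.26, -2.05 ± 0.26 and -2.00 ± 0.26 against these gates (edgeR, adjusted p = 0.013, 3.1e-06, 9.2e-07 and 3.2e-07), and without the library as a term the adjusted p was 0.54 against the Madcam1 and 0.053 against the Tnfsf11 gate. Col4a2, its partner in the same trimer, had 118, 221 and 34.2 CPM in the Cr2 gate and changed by -1.88 ± 0.26, -1.73 ± 0.27 and -1.61 ± 0.25 against the Tnfsf11, Fmod and Inmt gates (edgeR, adjusted p = 2.5e-06, 1.6e-05 and 8.3e-06), without a call against the Madcam1 gate (-1.13 ± 0.36, adjusted p = 0.12). The 2-IC replicate 2 library stood highest in Col4a1 in every gate. Of the other collagen IV genes, Col4a3 and Col4a6 had no UMI in the series and Col4a4 and Col4a5 had 5 UMIs each in the gates.

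Of the chains tested, Col6a3 had the lowest log2 fold change against the Madcam1, Tnfsf11 and Fmod gates. Against the Inmt gate Col6a6 was lowest, followed by Col6a3. Both belong to collagen VI, whose other tested chains changed less. Col6a3, the largest of its chains and the one whose propeptide is cleaved to endotrophin, had 78.1, 64.8 and 9.34 CPM in the Cr2 gate, the last from 3 UMIs. It had 239, 201 and 124 CPM in the Madcam1 gate, 311, 520.4 and 274 CPM in the Tnfsf11 gate, 306, 517 and 238 CPM in the Fmod gate and 319, 435 and 256 CPM in the Inmt gate. No library of these gates fell to the level of the Cr2 gate. The log2 fold change was -1.77 ± 0.41, -2.69 ± 0.27, -2.68 ± 0.28 and -2.71 ± 0.27 against them (edgeR, adjusted p = 0.016, 1.2e-08, 2.2e-08 and 1.9e-09). A UMI of Col6a3 was found in 22.8%, 31.4% and 4% of Cr2 barcodes and in 63.1%, 82.4% and 58.0% of Inmt barcodes, beside 18.0%, 12.5% and 4.76% of barcodes in the B cell reference. With every barcode thinned to 2000 UMIs these shares were 14.9%, 8.82% and 2.38% for Cr2 and 41.1%, 43.9% and 17.1% for Inmt. The B cell reference had 7.05%, 4.50% and 2.46%. In the 1-IC library the Cr2 value rests on 42 thinned barcodes and was near that of the reference. Such small counts cannot tell whether it is free RNA, which was not tested. The call against the Madcam1 gate was lost without either of the 2-IC replicates (adjusted p = 0.094 and 0.079), and the value turned to 0.37 with contaminant barcodes kept, whereas those against the Tnfsf11, Fmod and Inmt gates were kept in every setting.

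Col6a1 and Col6a2, which assemble with Col6a3, were also lower. Col6a1 had 175, 223 and 37.4 CPM in the Cr2 gate against 424, 618 and 315 CPM in the Tnfsf11 gate, 698, 687 and 594 CPM in the Fmod gate and 539, 589 and 326 CPM in the Inmt gate (log2 fold change -1.64 ± 0.26, -2.23 ± 0.26 and -1.87 ± 0.25; edgeR, adjusted p = 2.2e-05, 1.8e-07 and 6.5e-07). Col6a2 had 136, 98.3 and 28.0 CPM in the Cr2 gate, and its log2 fold change against these gates was -1.60 ± 0.26, -2.34 ± 0.26 and -1.91 ± 0.25 (edgeR, adjusted p = 3.1e-05, 5.6e-08 and 3.6e-07). Neither was called against the Madcam1 gate, with log2 fold changes of -1.06 ± 0.34 and -0.85 ± 0.39 (edgeR, adjusted p = 0.12 and 0.37). The ratio of Col6a3 to Col6a1 UMIs was 0.446, 0.290 and 0.250 in the Cr2 gate, below the 0.732, 0.843 and 0.868 of the Tnfsf11 gate and the 0.592, 0.739 and 0.785 of the Inmt gate. It overlapped with the Fmod gate (0.439, 0.753 and 0.400). In the Cr2 gate the order of levels was Col6a1, Col6a2 and Col6a3 in every library, while Col6a3 was above Col6a2 in the Tnfsf11 gate. The Fmod and Inmt gates had the order of the Cr2 gate in 2-IC replicate 1 and the 1-IC library, but not in 2-IC replicate 2. In the Inmt gate this rests on 726 against 736 and 124 against 125 UMIs. The order was thus not particular to the Cr2 gate.

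The chains that can take the place of Col6a3 in collagen VI had different values. Col6a4 had 67.4, 43.2 and 40.5 CPM in the Cr2 gate and 63.8, 46.6 and 39.2 CPM in the Inmt gate, with a log2 fold change of -0.06 ± 0.22 (edgeR, adjusted p = 0.88), and it was called in none of the 4 comparisons. In the 1-IC library it stood above Col6a1, Col6a2 and Col6a3 in the Cr2 gate. Its level in the B cell reference was 14.1, 11.1 and 15.7 CPM. Col6a6 was scarce in the Cr2 gate, with 4.73, 7.20 and 0 CPM from 7 UMIs in all, and had 14.9, 38.2 and 24.9 CPM in the Tnfsf11 gate and 33.0, 58.9 and 30.9 CPM in the Inmt gate. It was called lower against the Inmt gate (log2 fold change -3.18 ± 0.45, adjusted p = 1.6e-06) and the Tnfsf11 gate (-2.29 ± 0.56, adjusted p = 0.0050; edgeR), the latter not without 2-IC replicate 2 (adjusted p = 0.071) or the 1-IC library (0.051). In pooled UMIs its rate in the Cr2 gate was 0.110 times that of the Inmt gate (exact 95% interval for counting error 0.0434 to 0.231). Col6a6 passed the filter on low counts only with sums of the Inmt gate. Its call against that gate is thus not independent of the filter and is given as a description.

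**Figure D4:**
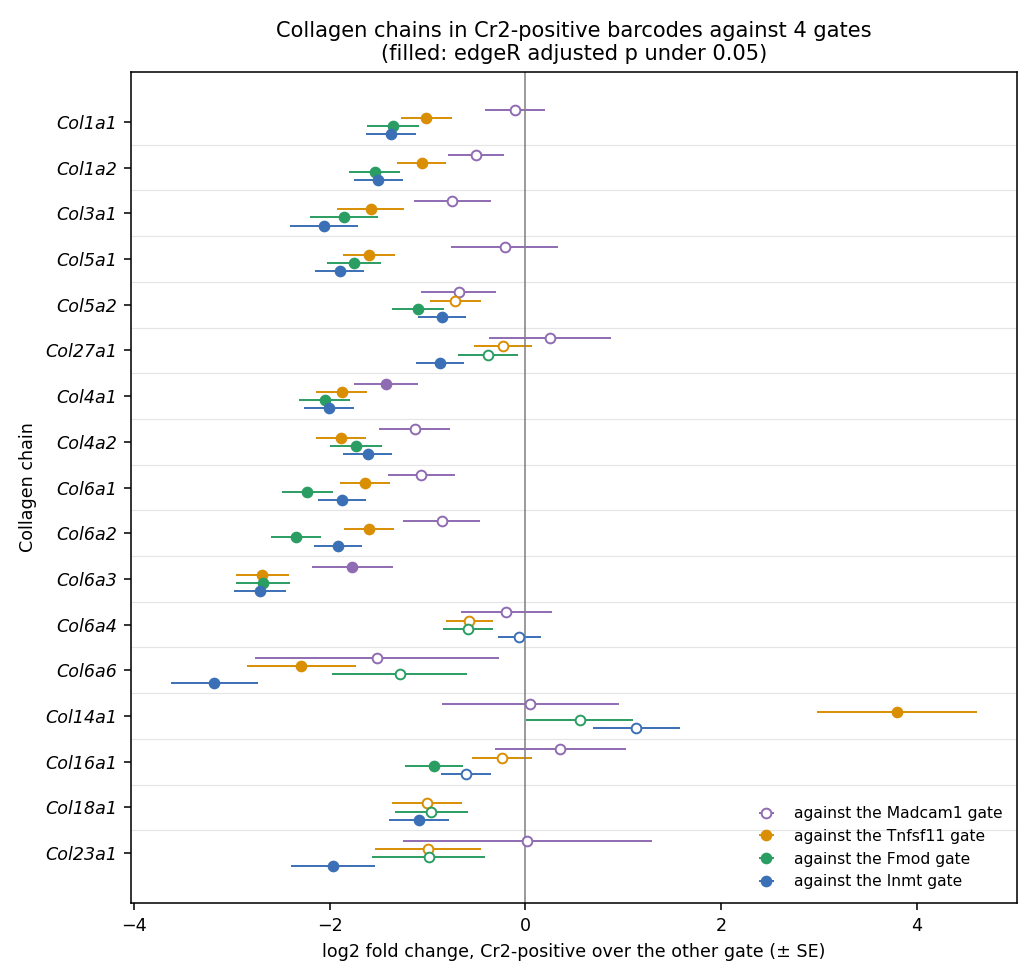
Log2 fold change (x axis, ± SE) of each chain (y axis) in Cr2-positive barcodes over each of the 4 other gates, from edgeR on 3 libraries; filled symbols passed an adjusted p of 0.05. Col6a3 lies near -2.7 against 3 gates, Col6a4 near -0.06 against the Inmt gate and Col14a1 at 3.80 against the Tnfsf11 gate; Col18a1 against the Madcam1 gate, which had no UMI, is not drawn.

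Col14a1, a fibril-associated collagen that binds fibre surfaces and limits their fusion, was the only chain called higher in the Cr2 gate. It had 22.5, 26.4 and 34.2 CPM there, 1.49, 0 and 4.15 CPM in the Tnfsf11 gate, 4.29, 38.6 and 0 CPM in the Fmod gate and 10.6, 12.3 and 10.3 CPM in the Inmt gate. The Cr2 gate did not overlap with the Tnfsf11 or the Inmt gate and lay within the range of the Fmod gate. The log2 fold change against the Tnfsf11 gate was 3.80 ± 0.82 (edgeR, adjusted p = 0.0015), which rests on 41 and 2 UMIs, a pooled ratio of 15.5 with an exact 95% interval for counting error of 4.03 to 132. Without 2-IC replicate 1 the adjusted p was 0.051. Col14a1 passed the filter on low counts only with sums of the Cr2 gate itself. Its call there is thus not independent of the filter and is given as a description. Against the Inmt and Fmod gates the log2 fold change was 1.13 ± 0.44 and 0.56 ± 0.55 (edgeR, adjusted p = 0.064 and 0.59). The Madcam1 gate had 25.1, 0 and 61.9 CPM, a range that held the Cr2 gate. Against it the log2 fold change was 0.05 ± 0.90 (edgeR, adjusted p = 0.99), so that Col14a1 was not higher than in every gate. The UMIs came from 32 of 230 Cr2 barcodes, and the B cell reference had 1.49, 2.57 and 0 CPM.

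Of the fibril-associated chains too rare for the test, 3 lay mainly in the Cr2 gate, and these were singled out after their values were seen. The Cr2 gate held 20.4% of the UMIs of the 5 gates, but 17 of 20 UMIs of Col9a2, 15 of 18 UMIs of Col22a1 and 6 of 7 UMIs of Col9a3. Col12a1, the most abundant untested chain of this class, did not, with 6 of 35 UMIs in the Cr2 gate (3.79 against 4.71 CPM in the other 4 gates, ratio 0.805, exact 95% interval for counting error 0.273 to 1.97), and Col20a1 had 3 of 6 UMIs there. Col9a2 and Col9a3 are chains of collagen IX, which coats the fibrils of cartilage, and Col22a1 is known from tissue junctions. The Col9a2 UMIs came from 6, 4 and 4 Cr2 barcodes of the 3 libraries and those of Col22a1 from 9, 1 and 4. The rate of Col9a2 in the Cr2 gate was 10.7 CPM against 0.487 CPM in the other 4 gates together (ratio 22.1, exact 95% interval for counting error 6.38 to 117), and that of Col22a1 9.47 CPM against 0.487 CPM (ratio 19.5, 5.51 to 105). In the Cr2 barcodes that the contaminant filter had removed, Col9a2 and Col22a1 had 7 UMIs each, at 1.41 CPM. The removed barcodes of the other 4 gates had 0 and 4 UMIs, at 0 and 0.791 CPM. For Col9a3 the removed barcodes held 3 UMIs in the Cr2 gate and 2 in the other 4 gates (0.605 and 0.395 CPM). The differences of Col22a1 and Col9a3 were thus much smaller there. Col14a1 went the other way there, with 11.1 CPM in the removed Cr2 barcodes and 31.0 CPM in those of the other gates. Col16a1, a fibril-associated chain tested by edgeR, had 48.5, 31.2 and 34.2 CPM in the Cr2 gate and was called lower against the Fmod gate alone (-0.93 ± 0.30, adjusted p = 0.034), a call lost without 2-IC replicate 2 (-0.39, adjusted p = 0.64) or the 1-IC library (0.075).

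Among the remaining chains tested, Col18a1, the basement membrane collagen whose end fragment is endostatin, had 29.6, 43.2 and 3.11 CPM in the Cr2 gate, the last from 1 UMI. It was called lower against the Inmt gate (40.9, 84.4 and 47.4 CPM; log2 fold change -1.09 ± 0.31; edgeR, adjusted p = 0.0096), a call lost without 2-IC replicate 2 (0.050) or the 1-IC library (0.099). Col18a1 had 0 UMIs in the Madcam1 gate, which allows up to 20.4 CPM over its 146720 UMIs. Col23a1, a transmembrane collagen, had 14.2, 21.6 and 0 CPM in the Cr2 gate and was called lower against the Inmt gate (34.3, 65.1 and 61.8 CPM; -1.96 ± 0.43; edgeR, adjusted p = 0.00075). The 27 chains below the filter had 0 to 144 UMIs each in the gates. Of these, Col15a1, a relative of Col18a1, had 45 of its 50 UMIs in the Inmt gate and 4 in the Cr2 gate. Col5a3 had 79 of 144 UMIs in the Inmt gate, 30 in the Tnfsf11 gate, 21 in the Fmod gate and 14 in the Cr2 gate. In all, these gates held 3894671, 1199049, 922919 and 1583501 UMIs. The Inmt count of Col5a3 is therefore no excess over the Tnfsf11 or Fmod gate. Its rate was 8.84 CPM in the Cr2 gate against 21.1 CPM in the other 4 gates together. The cartilage collagen Col2a1 and Col9a1, Col19a1, Col8a1 and Col8a2 had no UMI in the series.

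The calls of the first 3 comparisons overlapped in 9 chains, Col1a1, Col1a2, Col3a1, Col4a1, Col4a2, Col5a1, Col6a1, Col6a2 and Col6a3, which were lower in the Cr2 gate than in the Tnfsf11, Fmod and Inmt gates, and 15 of the 17 were lower in at least 1 comparison. These comparisons have the Cr2 sums in common, and the share of all genes tested that met either condition was not counted. Neither count is therefore read as particular to collagen. Markers of mural cells (Acta2, Des, Myh11, Notch3 and Rgs5), which also make collagen, summed to 1476 to 1955 CPM in the Cr2 gate, 2008 to 2942 CPM in the Tnfsf11 gate, 2212 to 2448 CPM in the Fmod gate and 1369 to 1870 CPM in the Inmt gate. The study also uses Myh11 as a marker of light zone FDCs, and it was highest in the Cr2 gate (179 to 305 CPM). Without it the sums were 1171 to 1777, 1859 to 2848, 2183 to 2345 and 1352 to 1839 CPM. Their part in the result was not tested. Of the Cr2 barcodes, 39, 10 and 17 had no UMI of Madcam1, Tnfsf11, Fmod or Inmt, and their collagen share was 0.340%, 0.125% and 0.109%.

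Few single chains were called between the 4 stromal gates. At an unadjusted p under 0.05 (edgeR) there were 8 chains for the Madcam1 gate, 2 for the Tnfsf11 gate, 6 for the Fmod gate and 8 for the Inmt gate. The share of all genes at this threshold was not counted, so these numbers can show neither an excess of collagen chains nor its absence. The median log2 fold change of the 17 chains was -0.86, 0.03, 0.39 and 0.33 in this order, and that of all genes -0.25, 0.10, 0.08 and 0.12. In the Madcam1 gate, with 4 to 17 barcodes a library, 16 of the 17 had a negative value. The share of all genes with a negative value was not counted, and their median was negative too. The calls rose to 15, 1, 12 and 15 with contaminant barcodes kept, where the share of all genes called was not counted. Set against the mean of the other 3, the Tnfsf11 gate had 0 of 17 chains called (edgeR, with 2 chains at an unadjusted p under 0.05, and 0 called by DESeq2), beside 0.203% of all genes lower, 0.509% higher and 0.712% in either direction. In the Madcam1 gate 1 chain was lower, Col1a1 at 1256, 258 and 743 CPM (log2 fold change -1.14 ± 0.27, adjusted p = 0.015), beside 1.66% of all genes lower, 0.770% higher and 2.43% in either direction, and the call was lost without 2-IC replicate 2 (adjusted p = 0.082) and by DESeq2 (0.067). In the Fmod gate 1 chain was higher, Col6a2 at 501, 481 and 386 CPM (0.89 ± 0.21, adjusted p = 0.024), beside 0.262% of all genes lower, 0.944% higher and 1.21% in either direction, and this call was lost without either of the 2-IC replicates (adjusted p = 0.25 and 0.088). In the Inmt gate 2 were higher, beside 1.61% of all genes lower, 4.68% higher and 6.29% in either direction. They were Col6a6 (1.48 ± 0.35, adjusted p = 0.0075), a call lost without either of the 2-IC replicates (0.18 and 0.093), and Col18a1, whose value rests on the zeros of the Madcam1 gate. Col6a6 passed the filter on low counts only with sums of the Inmt gate, so that its call is not independent of the filter. The calls of this paragraph were all absent without the library as a term.

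The genes that fold, export and cross-link collagen were read in the same fit, from a list of 40 of which 26 were tested. Of these, 7 were lower and 0 higher in the Cr2 gate against the Tnfsf11 gate (beside 4.48% and 6.63% of all genes), 9 and 0 against the Fmod gate (6.63% and 7.32%), and 13 and 2 against the Inmt gate (12.7% and 10.3%). The median log2 fold change of the 26 was -0.45, -0.72 and -0.70 in this order and -0.20 against the Madcam1 gate, and that of all genes -0.04, -0.02, -0.05 and 0.25. Serpinh1 encodes HSP47, the chaperone of the collagen triple helix in the endoplasmic reticulum. It had 483, 413 and 184 CPM in the Cr2 gate, 1036, 1534 and 747 CPM in the Tnfsf11 gate, 1005, 1250 and 1114 CPM in the Fmod gate and 1012, 1025 and 858 CPM in the Inmt gate, without overlap. It fell by 1.58, 1.66 and 1.54 on the log2 scale (SE 0.23, 0.24 and 0.23; edgeR, adjusted p = 1.0e-05, 6.0e-06 and 4.6e-06). P4hb, the shared subunit of prolyl 4-hydroxylase, and Ppib, a prolyl isomerase of the same compartment, fell less, with log2 fold changes of -0.82 to -0.74 and -0.74 to -0.65. Pcolce, an enhancer of procollagen C-proteinase, fell by 0.77, 1.19 and 0.86, and Bmp1, the proteinase itself, was called against the Fmod and Inmt gates (-2.09 ± 0.50 and -1.65 ± 0.43; edgeR, adjusted p = 0.0031 and 0.0048). Mia3, which loads procollagen into transport carriers, was called in no comparison (-0.37 to -0.14).

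**Figure D5:**
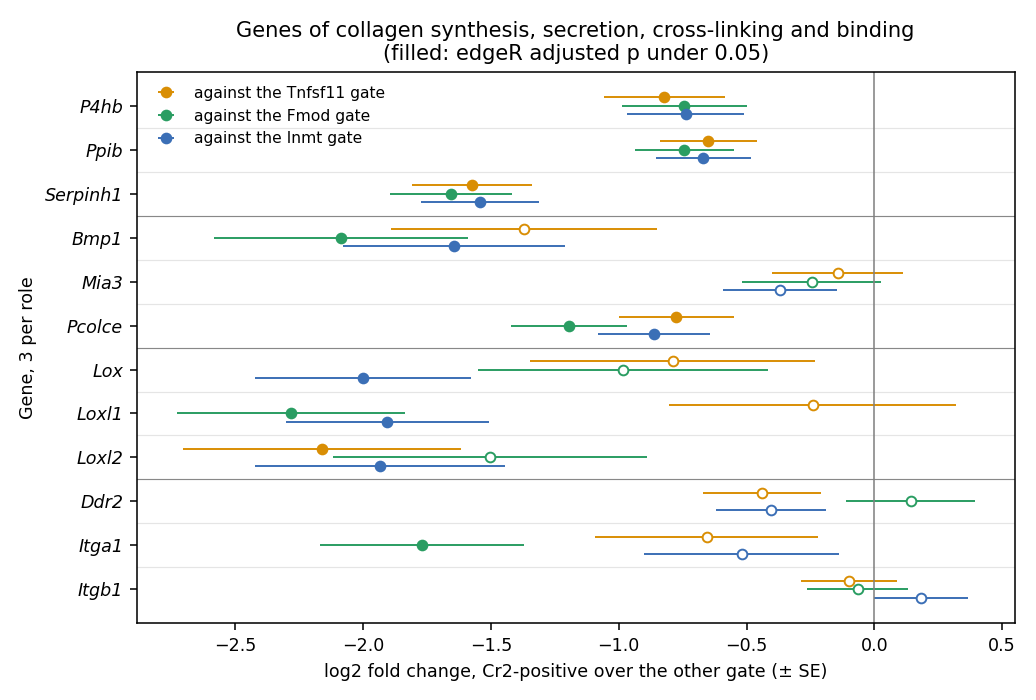
Log2 fold change (x axis, ± SE) of the 3 genes with the highest mean CPM in each role (y axis) in Cr2-positive barcodes over the Tnfsf11, Fmod and Inmt gates, from edgeR on 3 libraries; filled symbols passed an adjusted p of 0.05. Serpinh1 lies between -1.66 and -1.54, while Mia3, Ddr2 and Itgb1 have no filled symbol.

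Of the cross-linking enzymes, which oxidise lysines of secreted collagen, Lox was called against the Inmt gate (log2 fold change -2.00 ± 0.42), Loxl1 against the Fmod and Inmt gates (-2.28 ± 0.45 and -1.91 ± 0.40) and Loxl2 against the Tnfsf11 and Inmt gates (-2.16 ± 0.54 and -1.94 ± 0.49; edgeR, adjusted p = 0.00050, 0.00041, 0.00049, 0.0063 and 0.0033). All 3 were at 0 CPM in the Cr2 gate of the 1-IC library. Of genes for collagen receptors and uptake, 6 were tested, including the dipeptidase Pepd. Itgb1, the beta subunit of the collagen-binding integrins, had 336, 393 and 374 CPM in the Cr2 gate and 246, 387 and 309 CPM in the Inmt gate, and neither Itgb1 nor Ddr2, a receptor kinase for fibrillar collagen, was called in any of the 4 comparisons. Itga1, a partner of Itgb1, was called lower against the Fmod gate (-1.77 ± 0.40; edgeR, adjusted p = 0.0018). The 2 genes called higher against the Inmt gate were Ddr1, another collagen receptor kinase (43.8, 43.2 and 49.8 against 16.3, 10.6 and 10.3 CPM; 1.65 ± 0.36, adjusted p = 0.00063), and Plod2, a lysyl hydroxylase (59.1, 57.6 and 65.4 against 24.2, 43.1 and 16.5 CPM; 1.02 ± 0.28, adjusted p = 0.0066). They are named outside the rule, for being the only ones in that direction.

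The 1-IC library was lower in collagen than both 2-IC libraries in 4 of the 5 gates, with 1 library of this condition and hence no test. The collagen share of 2-IC replicates 1 and 2 was at least 3.40 times that of the 1-IC library in the Cr2 gate, 1.32 and 2.18 times in the Tnfsf11 gate, 1.31 and 1.83 times in the Fmod gate and 1.29 and 1.58 times in the Inmt gate. In the Madcam1 gate it was 1.96 and 0.836 times, and in the B cell reference 1.49 and 1.16 times. Of the 17 chains, 15 were lower in the 1-IC library than in both 2-IC libraries in the Cr2 gate, where 40.0% of all genes were, and 1 (Col14a1) was higher than in both, where 28.1% of all genes were. Lower than in both were 12 in the Tnfsf11 gate (36.1% of all genes), 13 in the Fmod gate (42.2%), 12 in the Inmt gate (42.6%) and 9 in the Madcam1 gate (19.3%), and higher than in both were 1 (29.1%), 1 (35.9%), 0 (30.7%) and 3 (40.6%). In the Cr2 gate Col3a1 was 5.33 and 6.51 times higher in the 2-IC libraries, Col1a1 3.13 and 4.03 times and Col5a2 1.80 and 2.09 times, whereas Col6a4 was 1.67 and 1.07 times higher. The number of antigen-ICs and the library cannot be told apart here, and the 1-IC library was also the one with the fewest UMIs. The ratio of 2-IC replicates 1 and 2 to the 1-IC library in the Cr2 gate moved with the gate. It was 3.06 and 3.96 among Cr2 barcodes with at least 1% Malat1, 2.15 and 4.94 with at least 2 UMIs of Cr2, and 3.13 and 1.15 in Cr2 barcodes without UMIs of the other 4 gate genes.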

How the data were processed

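Sorted lymph node stroma was measured in 3 single-cell 3' libraries. The authors deposited raw UMI counts for every gene in barcodes called as cells, made with Cell Ranger (version 5.0.0 in the file headers) on GRCm38, without normalization or batch correction. The short descriptions of the 2-IC libraries differ from each other and conflict with their shared title. Groups were taken from the sample titles.

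Barcodes with fewer than 200 genes, over 10% mitochondrial UMIs or any UMI of 13 genes of contaminating cells were removed, which left 2243 of 5486. Cells are not replicates, so that counts were summed per gate and library (15 sums) and fitted on all genes with edgeR 4.0.16 in R 4.3.3 (TMM, filterByExpr, quasi-likelihood test, gate and library as terms). The library was a block because the gates of a library come from 1 cell suspension. The Benjamini-Hochberg adjustment ran over the 6882 genes tested, and a call was an adjusted p under 0.05. Exact binomial and ratio intervals (95%, Clopper-Pearson) and the limit of 3 counts behind a 0 cover counting error only. The members and all lists were chosen with earlier results of these data known. Chains were named if their mean CPM over the 15 sums was at least 50 or if they were called in any of 8 contrasts, which gave the 17 tested. Genes of the synthesis list were named as the 3 with the highest mean CPM in each role. The test was checked on simulated counts. Promoters came from RefSeq (GRCm38.p6). DESeq2 1.42.0 was an alternative. Scrublet in Scanpy 1.11.5 marked 10 of 5486 barcodes and none of those retained, so that doublets were not removed.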

Additional observations from a re-analysis of the deposited data

Results flagged for a closer look

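Retained barcodes outside the 5 gates also carried collagen UMIs above the B cell reference, although no comparison used them. Those with UMIs of several of Madcam1, Tnfsf11, Fmod and Inmt had a collagen share of 0.787%, 0.932% and 0.590% in 2-IC replicates 1 and 2 and in the 1-IC library. Barcodes with none of the 5 gate genes had 0.834%, 1.47% and 0.468%. The reference had 0.147%, 0.115% and 0.0989%, so that each value was above it. In each library both kinds of barcode also lay above the Cr2 gate (0.358%, 0.421% and 0.105%).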

How the results depend on the processing

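Col4a2, Col6a1, Col6a2 and Col6a3 kept their calls against the Tnfsf11, Fmod and Inmt gates in all 16 alternatives. Over all called chains, 579 alternative values kept direction and call, 74 lost the call and 1 reversed, Col6a3 against the Madcam1 gate, at 0.37 with contaminant barcodes kept. That setting also moved the collagen share of the Madcam1 gate from 0.435% to 0.214%. The number of chains called for Cr2 against the Madcam1, Tnfsf11, Fmod and Inmt gates was 2, 11, 11 and 14. With no replicate block (the library left out as a term) it was 0, 7, 7 and 10. Against the Madcam1 gate it was 4 with gates assigned in a fixed order and 4 in Cr2 barcodes without UMIs of the other 4 genes. Leaving out 1 library gave 1 to 2, 9 to 10, 10 and 12 to 14.

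For each of the Madcam1, Tnfsf11, Fmod and Inmt gates against the other 3, the number was 1, 0, 1 and 2, and leaving out 1 library gave 0 to 2, 0, 0 to 1 and 0 to 2. It was 0, 0, 0 and 1 without TMM, 8, 1, 2 and 9 without the filter, 0, 0, 0 and 0 with no replicate block, 0, 0, 1 and 1 by DESeq2, 15, 1, 12 and 15 with contaminant barcodes kept, 2, 0, 2 and 4 with at least 2 UMIs of the gate gene, 12, 2, 3 and 1 with ordered gates, 2, 0, 1 and 0 after thinning to 2000 UMIs, 1, 0, 0 and 2 with at least 1% Malat1, 0, 0, 0 and 1 without the deepest 5% of barcodes, and 1, 0, 1 and 0 in Cr2 barcodes without the other 4 genes. The cause of these changes was not tested, and the share of all genes called was not counted in these settings. Leaving out shared barcodes, the deepest barcodes or Cr2 barcodes with UMIs of the other 4 genes was chosen after seeing the data. A doublet caller gave no usable alternative. The Madcam1 gate held 4 to 17 barcodes a library, which limits every value of it.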
